A study of Arabidopsis thaliana with 12 samples.

Results

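The 10 genes described here encode the mitogen-activated protein (MAP) kinase cascades of Arabidopsis immunity. They are MEKK1 [AT4G08500], MKK1 [AT4G26070], MKK2 [AT4G29810], MKK4 [AT1G51660], MKK5 [AT3G21220], MKK9 [AT1G73500], MPK3 [AT3G45640], MPK6 [AT2G43790], MPK4 [AT4G01370] and MPK11 [AT1G01560]. They were taken by locus identifier, and all 10 were found among the 32846 genes of the deposited expression table. Messenger RNA was sequenced from whole seedlings of the accession Columbia 0, aged 7 to 10 days and kept about 15 to a well. The 4 groups were wild type with water, wild type with 1 µM AtPep1 (Pep1 below), the irr mutant with water and the irr mutant with 1 µM AtPep1 (genotype rrm/irr in the labels), each sampled after 24 h as 3 libraries, 12 in all. The labels call the mock samples untreated, while the protocol names water. Pep1 is a peptide cut from a precursor protein on damage and perceived by the receptor kinases PEPR1 and PEPR2. IRR, mutated in irr, is known as an RNA-binding protein that restrains immune signalling. Only 1 irr line was sampled, with no second allele and no complemented line, and the labels do not say whether replicates came from separate cultures, so the spread behind each p-value may be technical only.

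A MAP kinase cascade is a relay in which a MEKK phosphorylates an MKK and the MKK phosphorylates an MPK. In Arabidopsis, perception of microbial patterns or of Pep peptides activates a branch in which MKK4 and MKK5 act on MPK3 and MPK6, and a branch in which MEKK1 and the pair MKK1 and MKK2 act on MPK4. MKK9 can also act on MPK3 and MPK6, with known roles in ethylene and camalexin production, and MPK11 is the closest relative of MPK4. Cascade activity is set by phosphorylation, which transcript levels do not measure.

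The libraries held 17.4 M to 28.6 M reads in 11 cases (M for the prefix mega), and irr water replicate 3 held 56.5 M, as recovered from the steps between low values. The labels name the mutated gene only through the line. AT3G23900, annotated here as IRR from knowledge of the study, averaged 12.8 ± 1.93 (SD, n = 3) FPKM in wild type with water, 11.6 ± 0.995 in wild type with Pep1, 12 ± 0.72 in irr with water and 11.2 ± 0.573 in irr with Pep1, and its groups overlapped. Its level therefore does not tell mutant from wild-type libraries, and the genotypes rest on the labels. FPKM counts fragments per M sequenced and per kilobase of a gene's length. Libraries of irr with Pep1 were the least alike, with a Spearman's rho across genes of 0.957 to 0.973 against 0.980 to 0.982 in wild type with water. In that group replicate 2 was the highest of the 3 for 10 of the 10 cascade genes and for 41.6% of all genes, and replicate 3 was the lowest for 10 of the 10 and for 53.2% of all genes. Counts of called cascade genes that rest on this group, and some of their differences, are therefore given also without replicate 3 and without replicate 2. Results of the pathway and marker lists are given with all libraries only. In irr with water, replicate 3 was the highest for 9 of the 10 cascade genes and for 26.7% of all genes.

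The cascade genes spanned a wide range of levels per length. Whole seedlings hold several organs, and in all values below fewer cells of a type cannot be told apart from less RNA per cell. Over the 12 libraries MPK3 averaged 53.2 FPKM, MPK6 40.2, MPK4 28.9, MKK2 16.3, MKK9 13.9, MKK5 12.8, MEKK1 11.5, MKK1 5.22, MKK4 5.05 and MPK11 2.12. MPK6 was above MPK4 in 12 of 12 libraries, MPK4 above MKK2 in 12 and MEKK1 above MKK1 in 12. Other neighbours in this order were not separate in every library: MPK3 was above MPK6 in 9, MKK9 above MKK5 in 5 and MKK1 above MKK4 in 8. The highest library was 1.43 times the lowest for MPK6 and 1.57 times for MPK4, the steadiest members. The same quotient was 3.07 for MPK3 and 3.27 for MKK9. It was 117 for MPK11.

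**Figure D1:**
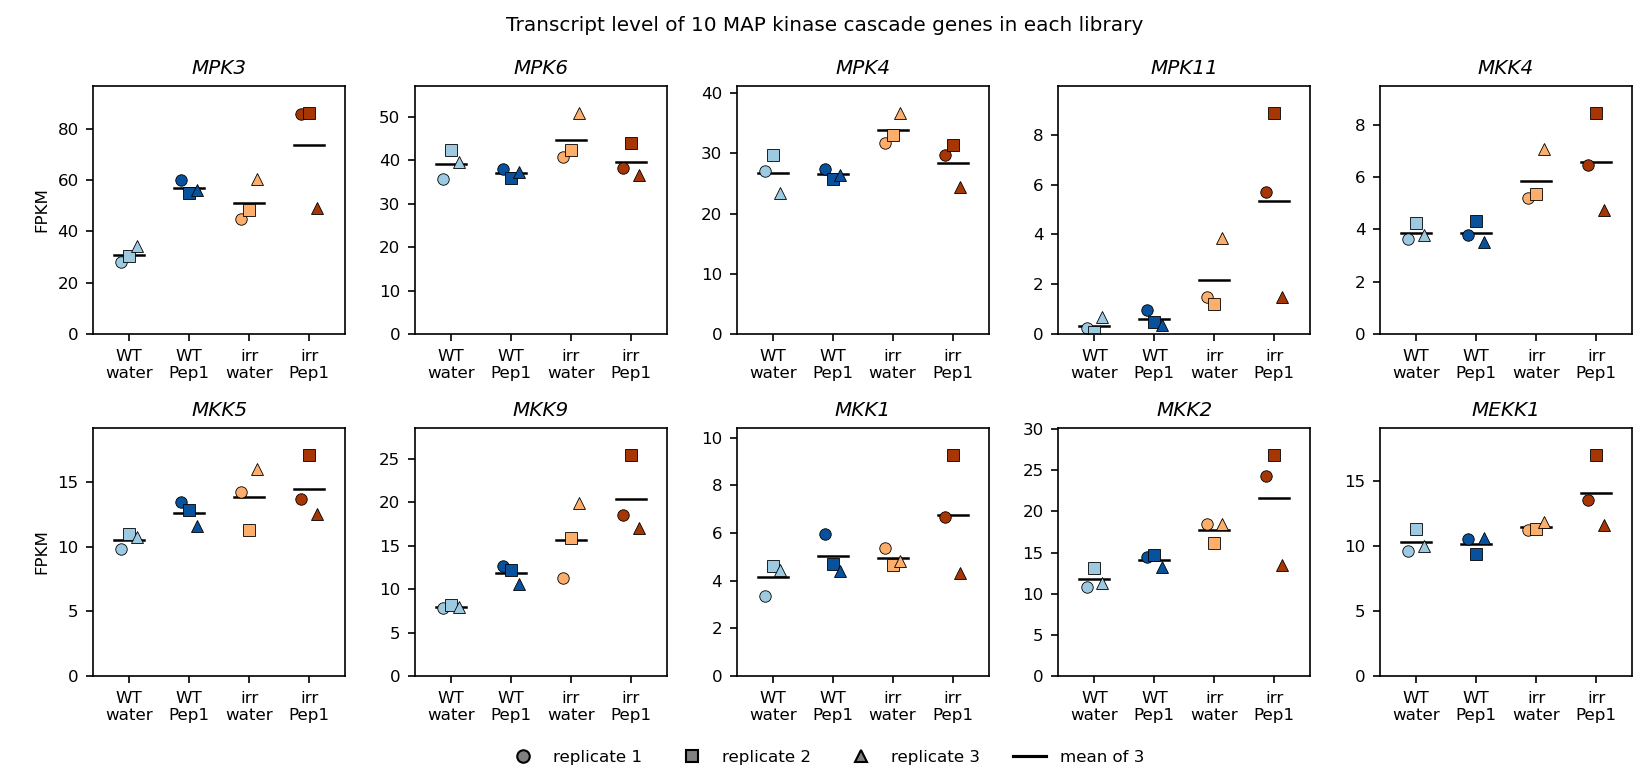
Level of each cascade gene in FPKM (vertical axis, linear and starting at 0) in the 12 libraries, with 1 point per library, a marker shape per replicate number and a bar at the mean of 3. MPK3 lies between 28.1 and 34.2 FPKM in wild type with water and above that in the other 9 libraries, while MPK6 stays between 35.7 and 51.0 FPKM.

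The 2 genotypes and 2 treatments give 4 comparisons of group pairs and 3 that use all libraries, namely the mean Pep1 difference, the mean irr difference and their interaction. A gene was called changed when limma gave a Benjamini-Hochberg adjusted p under 0.05 over the 18177 genes kept, those with at least 1 FPKM in at least 3 libraries. Log2 differences below are on the log2(FPKM + 1) scale, are followed by their standard error, and understate changes of genes near or under 1 FPKM. All 10 cascade genes were kept, MPK11 only through irr libraries, since its 6 wild-type values were all under 1 FPKM. A count over the 10 genes therefore holds MPK11 by way of the genotype in which it is high. The pairs of groups share libraries with each other, so their results are not independent.

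At the top of the MPK4 branch, MEKK1 measured 9.61, 11.3 and 9.97 FPKM in wild type with water and 10.5, 9.37 and 10.6 in wild type with Pep1. Irr libraries held 11.2, 11.3 and 11.8 FPKM with water and 13.5, 17 and 11.6 with Pep1. The wild-type groups overlapped, and all 3 libraries of irr with Pep1 lay above all 3 of wild type with Pep1. That difference was 0.42 ± 0.12 and was not called (limma adjusted p = 0.11). With irr Pep1 replicate 3 left out it was 0.54 with an adjusted p of 0.0169, and with replicate 2 of that group left out it was 0.28 with an adjusted p of 0.343. The mean irr difference for MEKK1 was 0.28 ± 0.09 (limma adjusted p = 0.0555), 0.34 with an adjusted p of 0.0128 without replicate 3, and 0.21 with an adjusted p of 0.0981 without replicate 2.

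Of the MKKs of this branch, MKK1 was the lower and MKK2 the higher in every library. MKK1 measured 3.36, 4.63 and 4.44 FPKM in wild type with water, 5.94, 4.72 and 4.42 with Pep1, and in irr 5.36, 4.67 and 4.84 with water and 6.66, 9.29 and 4.34 with Pep1. Its groups with Pep1 overlapped those with water in both genotypes, and none of its differences was called, the mean irr difference being 0.27 ± 0.15 (limma adjusted p = 0.237). In the reference annotation MKK1 is overlapped on the opposite strand by ABI1, a phosphatase of abscisic acid signalling, at 27.8 to 41.1 FPKM in the group means. Use of strand in the counting is not stated, so reads of MKK1 and ABI1 cannot be told apart where they overlap.

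MKK2 measured 10.8, 13.1 and 11.3 FPKM in wild type with water and 14.4, 14.7 and 13.2 with Pep1, without overlap. In the mutant the values were 18.5, 16.2 and 18.5 FPKM with water and 24.3, 26.9 and 13.5 with Pep1. Every irr library with water lay above all 6 wild-type libraries, and irr Pep1 replicate 3 fell among the wild-type values with Pep1. MKK2 was higher in irr over both treatments, with a mean log2 difference of 0.54 ± 0.14 (limma adjusted p = 0.0271). This call was kept in 11 of 20 recomputations under other settings, and leaving out 1 library ended it in 8 of 12 cases, at adjusted p of 0.0509 to 0.0669. It held without wild type water replicate 2, wild type Pep1 replicate 2, irr water replicate 2 or irr Pep1 replicate 3. The ratio of group means, irr to wild type, was 1.51 with water and 1.53 with Pep1.

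In the other branch, MKK4 measured 3.62, 4.24 and 3.77 FPKM in wild type with water and 3.78, 4.31 and 3.53 with Pep1. Irr values were 5.21, 5.34 and 7.06 FPKM with water and 6.47, 8.47 and 4.76 with Pep1. Pep1 left the wild-type groups interleaved at means of 3.87 ± 0.327 and 3.87 ± 0.399 (SD, n = 3), and all 6 irr libraries lay above all 6 wild-type libraries. The mean irr difference was 0.55 ± 0.12 and was called (limma adjusted p = 0.0152), a call kept in 20 of 20 recomputations. MKK5, its close copy, measured 9.78, 11 and 10.7 FPKM in wild type with water, 13.4, 12.8 and 11.6 with Pep1, and in irr 14.2, 11.3 and 16.0 with water and 13.7, 17.1 and 12.5 with Pep1. MKK5 was higher with Pep1 in wild type without overlap, but no difference of it was called, the mean irr difference being 0.26 ± 0.10 (limma adjusted p = 0.0964). The gene 4CL5, which encodes an enzyme of phenylpropanoid synthesis, overlaps MKK5 on the opposite strand and had group means of 2.03, 2.92, 4.51 and 9.13 FPKM in the order given for MKK5. Its part in the MKK5 values was not tested. Reads shared between the close copies MKK4 and MKK5, or MPK4 and MPK11, could be split either way by the counting, which makes these levels uncertain.

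MKK9 measured 7.80, 8.14 and 7.92 FPKM in wild type with water and 12.7, 12.2 and 10.6 with Pep1. The irr libraries had 11.3, 15.9 and 19.9 FPKM with water and 18.5, 25.5 and 17 with Pep1. The 3 libraries of wild type with water were the lowest of the 12, and all irr libraries with Pep1 lay above all wild-type libraries with Pep1. Under water MKK9 was higher in irr by 0.86 ± 0.18 (limma adjusted p = 0.0297). That call was lost without any 1 of the wild-type water libraries or without irr water replicate 3, at adjusted p of 0.0667 to 0.116. Over both treatments the irr difference was 0.79 ± 0.13 (limma adjusted p = 0.00439), and it was called in 20 of 20 recomputations. The mean Pep1 difference was 0.44 ± 0.13 (limma adjusted p = 0.049), a call kept in 5 of 20 recomputations. With 1 library left out it held only without irr water replicate 3 or irr Pep1 replicate 3, and the other 10 gave adjusted p of 0.0634 to 0.104.

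Among the MPKs, MPK3 measured 28.1, 30.6 and 34.2 FPKM in wild type with water and 60.2, 54.9 and 56.2 with Pep1. In the irr libraries it stood at 44.7, 48.3 and 60.5 FPKM with water and 85.7, 86.4 and 49.0 with Pep1. In wild type the groups were far apart, and in irr replicate 3 with Pep1 fell among the water values. Pep1 raised MPK3 in wild type 1.84-fold as a ratio of means and by 0.86 ± 0.19 on the log2 scale (limma adjusted p = 0.0327). This call was lost without any 1 of the 6 wild-type libraries, at adjusted p of 0.0518 to 0.135. In irr the Pep1 difference was 0.48 ± 0.19 (limma adjusted p = 0.21), and 0.75 with an adjusted p of 0.00802 without irr Pep1 replicate 3, against 0.35 with an adjusted p of 0.497 without replicate 2. The mean Pep1 difference over both genotypes was 0.67 ± 0.14 (limma adjusted p = 0.0106), called in 20 of 20 recomputations.

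MPK3 was also higher in irr under water without overlap, by 0.70 ± 0.19, which missed the threshold (limma adjusted p = 0.0654). The difference passed it without irr Pep1 replicate 3 or without replicate 2 of that group (limma adjusted p = 0.0083 and 0.0386). Those libraries are of neither group compared and enter only the shared spread. In the other 10 cases with 1 library left out MPK3 stayed uncalled, at limma adjusted p of up to 0.226. Without irr water replicate 3 the difference was 0.57. The mean irr difference of MPK3 was 0.51 ± 0.14 (limma adjusted p = 0.0318), kept in 10 of 20 recomputations. With 1 library left out it held without wild type water replicate 3, irr water replicate 1 or 2, or irr Pep1 replicate 3, and the other 8 gave adjusted p of 0.0591 to 0.0785. The mean of irr with water, 51.2 ± 8.27 FPKM (SD, n = 3), and that of wild type with Pep1, 57.1 ± 2.75, overlapped in their libraries.

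MPK6, which shares its upstream MKKs with MPK3, measured 35.7, 42.3 and 39.6 FPKM in wild type with water and 37.9, 36.0 and 37.4 with Pep1. With irr the values were 40.7, 42.3 and 51.0 FPKM with water and 38.2, 44.0 and 36.7 with Pep1. Groups overlapped in each of the 4 comparisons, and no difference was called, the largest being 0.18 ± 0.11 for irr under water (limma adjusted p = 0.347). MPK4 measured 27.1, 29.7 and 23.4 FPKM in wild type with water and 27.5, 25.7 and 26.5 with Pep1. In irr it measured 31.8, 33.0 and 36.8 FPKM with water and 29.7, 31.4 and 24.4 with Pep1. All 3 irr libraries with water lay above every other MPK4 value, so MPK4 was higher in irr under water by 0.33 ± 0.11 and lower with Pep1 within irr by 0.25 (fitted value -0.25 ± 0.11), neither of them called (limma adjusted p = 0.116 and 0.281).

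MPK11 was near the detection limit in wild type, at 0.231, 0.0758 and 0.696 FPKM with water and 0.958, 0.487 and 0.379 with Pep1. In irr it measured 1.5, 1.21 and 3.84 FPKM with water and 5.69, 8.9 and 1.5 with Pep1. Every irr library lay above every wild-type library, and the irr values themselves spread widely. The 3 wild-type water libraries held 37 MPK11 reads in sum, those with Pep1 55, the irr libraries 425 with water and 435 with Pep1. Of the 425 reads, 329 came from irr water replicate 3, the library of 56.5 M. The sums are not corrected for depth, so they show how few reads were counted and not the size of any group difference. The lowest value, in wild type water replicate 2, rested on 2 reads, with an exact 95% Poisson interval of 0.00918 to 0.274 FPKM that covers counting error only. As ratios of means, irr was 6.54 times wild type with water and 8.82 times with Pep1. On the log2 scale these differences were 1.19 ± 0.44 and 1.79 ± 0.44, neither of them called (limma adjusted p = 0.143 and 0.0671). The mean irr difference was 1.49 ± 0.31 (limma adjusted p = 0.0122), and it was 2.60 with a pseudocount of 0.1 and 0.62 with a pseudocount of 5. Since MPK11 entered the test by its irr values alone, this p is read only beside that of the fit with no filter on level, where the adjusted p was 0.03. The Pep1 difference of MPK11 was 0.28 ± 0.44 in wild type and 0.87 ± 0.44 in irr, neither called (limma adjusted p = 0.764 and 0.323). Leaving out irr Pep1 replicate 3 made the latter 1.44 with an adjusted p of 0.0272, and leaving out replicate 2 made it 0.45 with an adjusted p of 0.712.

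Counted together, Pep1 in wild type raised 1 of the 10 cascade genes, MPK3, and lowered 0, beside 3.47% of all genes called, 2.13% higher and 1.34% lower. Groups did not overlap, with Pep1 higher, for 4 of the 10 (MPK3, MKK5, MKK9 and MKK2) and, with Pep1 lower, for 0, against 20.8% and 12.6% of all genes. The median log2 difference of the 10 was 0.24 beside 0.04 over all genes tested. In irr, Pep1 changed 0 of the 10 by limma, with 1 of them, MPK3, under 0.05 before adjustment, while 1.99% of all genes were called, 0.737% higher and 1.25% lower. Without overlap, 0 of the 10 were higher and 1, MPK4, was lower, against 7.03% and 10.8% of all genes. The median of the 10 was again 0.24, beside 0.00 over all genes. Without irr Pep1 replicate 3, Pep1 raised 3 of the 10 in irr (MPK3, MPK11 and MKK2), beside 5.22% of all genes called higher. Without replicate 2 of that group limma called 0 of the 10 higher, with 1 under 0.05 before adjustment, beside 0.0221% of all genes.

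Irr with water had 1 of the 10 genes called higher than wild type, MKK9, beside 3.92% of all genes called, 2.96% higher and 0.963% lower. Without overlap, 8 of the 10 were higher in irr, all but MPK6 and MEKK1, and 0 lower, against 17.7% and 10.4% of all genes. The median log2 difference was 0.42, beside 0.03 over all genes. Without irr Pep1 replicate 3, a library of neither group that enters the shared spread, 4 of the 10 were called higher (MKK9, MPK3, MPK11 and MKK2), beside 5.72% of all genes, and without replicate 2 of that group 2 were (MKK9 and MPK3), beside 6.04%. Leaving out 1 of the other libraries took the count to 0 by limma in 4 cases and left it at 1 in 6. With Pep1, limma called 0 of the 10 between the genotypes, with 5 of them under 0.05 before adjustment, beside 1.53% of all genes called, 1.17% higher and 0.363% lower. Without overlap, 4 of the 10 (MPK11, MKK4, MKK9 and MEKK1) were higher and 0 lower, against 10.4% and 12.8% of all genes. Their adjusted p ran from 0.0671 for MPK11 to 0.11 for MEKK1. Without irr Pep1 replicate 3 the called genes were 6 of the 10 (MPK3, MPK11, MKK4, MKK9, MKK2 and MEKK1), beside 7.40% of all genes. Without replicate 2 they were 0 by limma, with 4 under 0.05 before adjustment, beside 0.138% of all genes, and the differences of MPK11, MKK2 and MEKK1 fell to 1.36, 0.34 and 0.28.

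Averaged over the treatments, irr had 5 of the 10 called higher (MKK9, MPK11, MKK4, MKK2 and MPK3) and 0 lower, beside 12.4% of all genes called, 8.55% higher and 3.90% lower. Without irr Pep1 replicate 3 they were 8, all but MPK6 and MKK5, beside 13.4% of all genes called higher, and without replicate 2 they were 3 (MKK9, MPK11 and MKK4), beside 6.55%. All 10 mean irr differences were above 0, with a median of 0.39 beside 0.00 over all genes. Averaged over the genotypes, Pep1 had 2 of the 10 called higher (MPK3 and MKK9), beside 11.6% of all genes called, 6.10% higher and 5.45% lower. In the absence of irr Pep1 replicate 3 they were 5 (MPK3, MPK11, MKK9, MKK1 and MKK2), beside 11.4% of all genes called higher, and in the absence of replicate 2 MPK3 alone was, beside 3.92%. The interaction, which asks whether the Pep1 difference depended on genotype, called 0 of the 10 by limma and 0% of all genes, and 1219 genes, none of the 10 among them, had an unadjusted p under 0.05. Interaction values ran from -0.38 ± 0.27 for MPK3 to 0.59 ± 0.62 for MPK11, with adjusted p of at least 0.859, so a difference between the genotypes in the Pep1 response was not detectable for these genes.

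**Figure D2:**
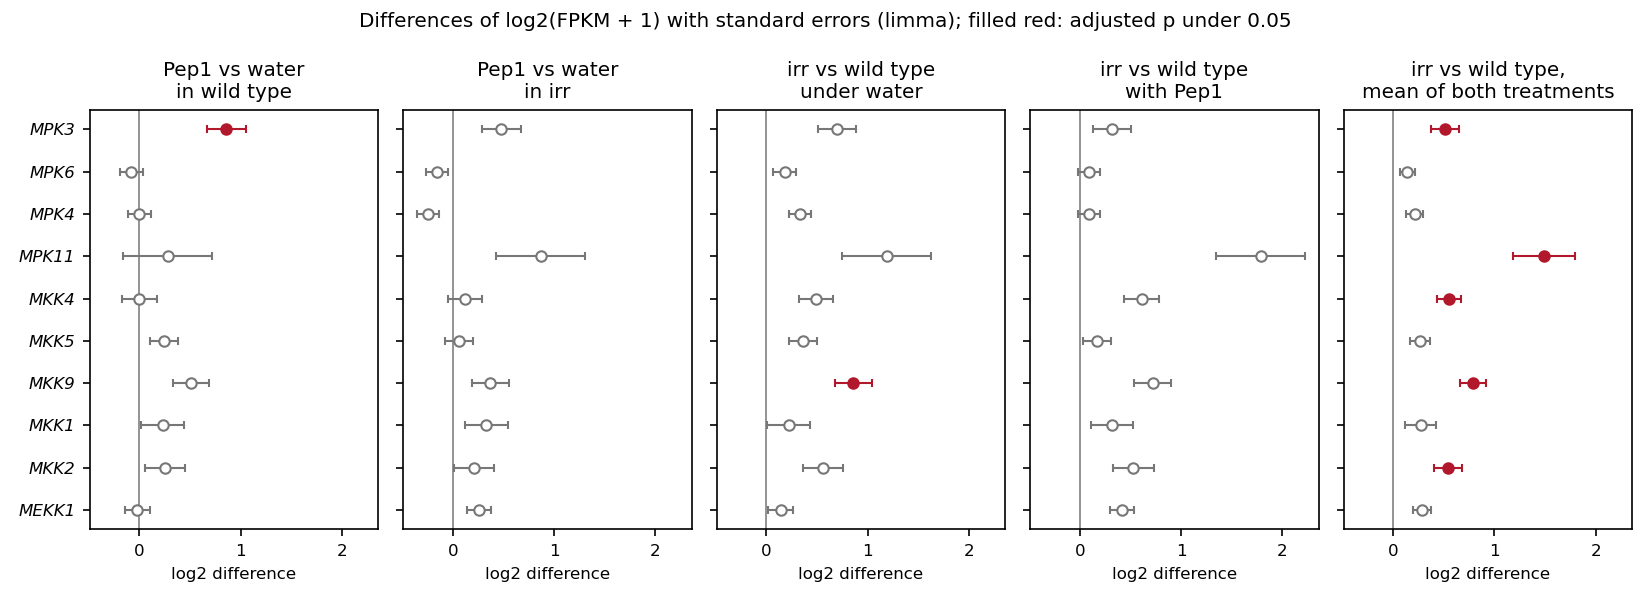
Log2 differences of log2(FPKM + 1) (horizontal axis) of the 10 cascade genes with standard errors from limma, in 5 comparisons, filled red where the adjusted p is under 0.05. MPK3 is the gene called for Pep1 in wild type, MKK9 the gene called for irr under water, and 5 genes are called in the mean irr difference.

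Ratios of related genes within a library do not depend on how libraries were scaled. MPK3 relative to MPK6 was 0.788, 0.724 and 0.865 in wild type with water and 1.59, 1.53 and 1.5 with Pep1. In irr it was 1.1, 1.14 and 1.19 with water and 2.24, 1.96 and 1.33 with Pep1. MPK3 was thus below MPK6 in 3 of 3 libraries of wild type with water and above it in the other 9. The ratio was higher with Pep1 by 0.81 on the log2 scale (exact permutation test within genotypes, two-sided, p = 0.005, the smallest it can give, adjusted p = 0.02 over 8 tests) and higher in irr by 0.38 (exact p = 0.02, adjusted p = 0.04). With 1 library left out the irr call was lost in 9 of 12 cases, at adjusted p of 0.056 to 0.08, and held without wild type water replicate 1 or 3 or irr Pep1 replicate 3. The Pep1 call was lost without irr water replicate 3 (adjusted p = 0.0533). All 3 ratios of wild type with Pep1 lay above all 3 of irr with water.

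MPK11 relative to MPK4 was 0.0136 ± 0.0143 (SD, n = 3) in wild type with water, 0.0227 ± 0.0108 with Pep1, 0.0629 ± 0.0365 in irr with water and 0.179 ± 0.112 with Pep1. It was higher in irr by 2.77 on the log2 scale (exact permutation test within treatments, two-sided, p = 0.005, adjusted p = 0.02, lost in 2 of 12 cases with 1 library left out, wild type Pep1 replicate 3 and irr water replicate 3), and the Pep1 difference of 1.34 missed the threshold (exact p = 0.065, adjusted p = 0.0867). The size of both differences rests on wild-type MPK11 values near the detection limit, taken without a pseudocount. In wild type with water the log2 ratio ran from -8.61, in the library with 2 MPK11 reads, to -5.07. MKK4 relative to MKK5 was 0.369 ± 0.0178 and 0.307 ± 0.0279 in wild type with water and with Pep1, and 0.427 ± 0.0538 and 0.450 ± 0.0604 in irr. Irr was higher in this ratio by 0.37 on the log2 scale (exact permutation p = 0.015, adjusted p = 0.04), a call lost without wild type Pep1 replicate 1 or 3 or irr water replicate 2 or 3, at adjusted p of 0.0533 to 0.0667. MKK1 relative to MKK2 was 0.352 ± 0.0409 and 0.357 ± 0.0501 in wild type, and 0.279 ± 0.0161 and 0.314 ± 0.0365 in irr, in the same order. Irr was lower in it by 0.26 (difference -0.26, exact permutation p = 0.03, adjusted p = 0.048). This call was lost in 8 of 12 cases with 1 library left out, at adjusted p of 0.056 to 0.12, and held without wild type water replicate 1 or 3, wild type Pep1 replicate 2 or irr Pep1 replicate 2. Pep1 differences of these last ratios were -0.09 and 0.09, neither past the threshold (exact permutation, adjusted p = 0.38 for each).

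**Figure D3:**
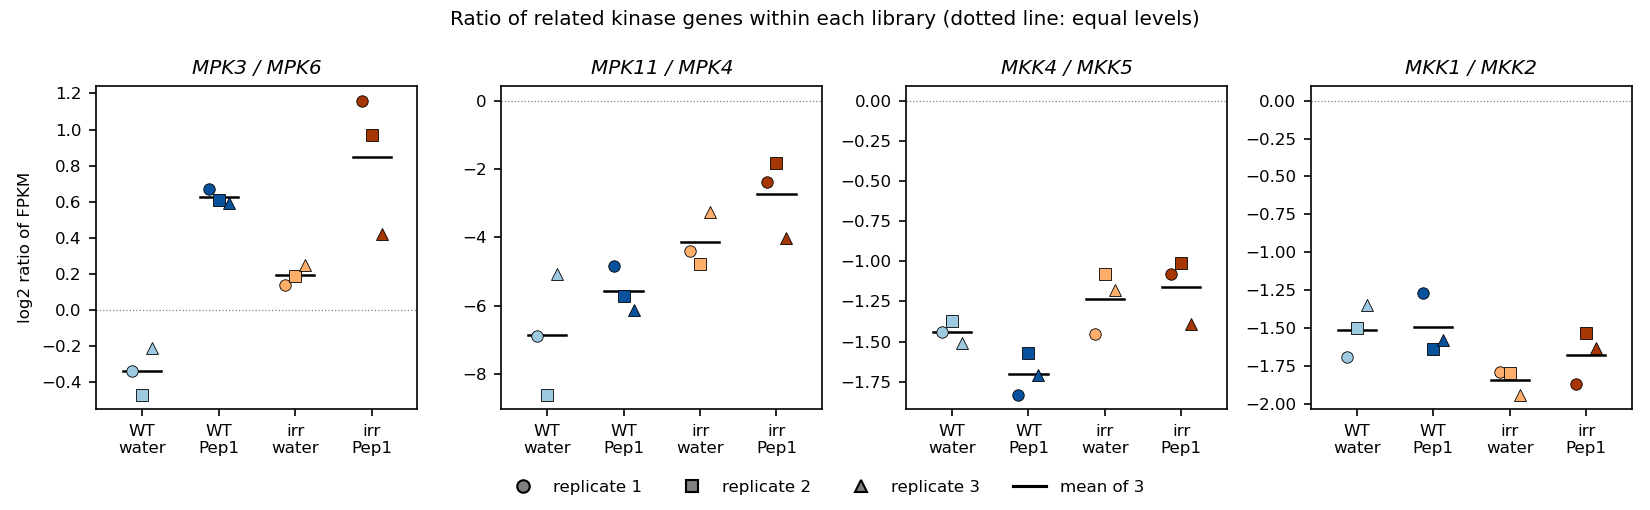
Log2 ratio of FPKM of 4 pairs of related kinase genes (vertical axis) in the 12 libraries, with 1 point per library, a bar at the mean of 3 and a dotted line at equal levels. MPK3 over MPK6 is below the line in 3 of 3 libraries of wild type with water and above it in the other 9, and MPK11 over MPK4 is higher in irr by 2.77 in the mean.

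Within the family of 20 MPK genes, MPK17 had the highest level in 12 of 12 libraries, at 70.6 to 117 FPKM. MPK3 ranked 4 in each library of wild type with water and 2 in each of the other 9. Its share of the summed MPK level was 8.14% to 8.82% in wild type with water and 12.8% to 13.5% with Pep1. In irr the share was 9.90% to 13.2% with water and 11.5% to 17.7% with Pep1. The summed level itself ran from 346 to 529 FPKM.

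Across the 12 libraries, which share groups and treatments, the cascade genes differed in how closely they followed each other. MPK11 and MKK4 had a Pearson r of 0.93 on log2 values, and MKK2 was most like MPK11 with 0.91. MPK6 was the least like the others, with a median r of 0.48, and was most like MPK4 with 0.81. The genes most like MPK3 of all genes kept were RLP54 and TPP with r = 0.97 and AT1G78850, AT2G23200 and AT3G23550 with 0.96. Those most like MPK11 were CML38, Hsp70-2, ATGLR1.2, AT1G31130 and PUP18, each with r = 0.98. These values describe 12 libraries in 4 groups and carry no test.

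Of 14 other MPK genes kept, 1 rose with Pep1 in wild type and 1 was higher in irr under water, in both cases MPK5, at 0.49 ± 0.12 (limma adjusted p = 0.0467) and 0.58 ± 0.12 (adjusted p = 0.0267). MPK5 averaged 21.5 ± 1.93 FPKM (SD, n = 3) in wild type with water, 30.5 ± 0.791 with Pep1, and 32.9 ± 5.33 and 39.2 ± 4.27 in irr. In the mean irr difference 2 of the 14 were higher, MPK5 at 0.46 and MPK17 at 0.30, and 1 was lower, MPK8 at -0.20 (limma adjusted p = 0.00691, 0.0247 and 0.0387). The list's median there was 0.00, beside 0.00 over all genes.

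Of 3 other MKKs kept, 1 rose with Pep1 in wild type. It was MKK7, which acts in systemic acquired resistance, at 1.2 ± 0.24 (limma adjusted p = 0.0253), from 0.643, 0.264 and 0.233 FPKM to 2.28, 3.58 and 1.05. The groups did not overlap, at levels near 1 FPKM, and 2.13% of all genes were called higher in this comparison. Of 8 other MEKK-type kinases kept, 0 were called in any pair of groups by limma, while 5 had an unadjusted p under 0.05 in at least 1 pair. In the mean Pep1 difference MEKK3, encoded near MEKK1, rose by 0.79 and ANP3 fell by 0.49 (fitted value -0.49), and MEKK3 was also higher in irr by 0.69 (limma adjusted p = 0.0125, 0.0337 and 0.0208). MEKK3 averaged 11.8 ± 0.884 FPKM (SD, n = 3) in wild type with water, 22.4 ± 3.36 with Pep1, and 21.3 ± 6.03 and 35.7 ± 12 in irr. The mean Pep1 difference had 6.1% of all genes called higher and 5.45% lower, and the mean irr difference 8.55% higher.

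Of 7 phosphatases that act on MAP kinases, 0 were called in any pair of groups by limma, while 3 had an unadjusted p under 0.05 in at least 1 pair. In both averaged differences 1 was called, MKP1, which removes the activating phosphates of MPK6, at 0.38 ± 0.09 for Pep1 and 0.35 ± 0.09 for irr (limma adjusted p = 0.0197 and 0.027). The shares of all genes called higher were 6.1% for Pep1 and 8.55% for irr. Upstream of the cascades, 7 receptors and relays were kept, the second Pep receptor PEPR2 not being among them, and 0 of the 7 were called in any comparison by limma, while 5 had an unadjusted p under 0.05 in at least 1. The most abundant were RACK1A, a scaffold for these cascades, at 143 ± 32.2 FPKM (SD, n = 3) in wild type with water and 119 ± 11.3 with Pep1, and the kinase BSK1 at 58.7 ± 2.2 and 64.6 ± 4.73. The receptor PEPR1 averaged 5.86 ± 0.512 FPKM (SD, n = 3) in wild type with water and 7.11 ± 0.609 with Pep1, and 7.59 ± 1.03 and 9.91 ± 3.21 in irr.

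Among 17 known substrates and partners of the MPKs, limma called 0 higher and 1 lower with Pep1 in wild type (5 and 1 at an unadjusted p under 0.05), the lower one being NIA2, a nitrate reductase, at -0.51 ± 0.12 (limma adjusted p = 0.0369). Under water 2 of the 17 were higher in irr, WRKY33 at 1.89 ± 0.39 and WRKY25 at 0.72 ± 0.17 (limma adjusted p = 0.0277 and 0.0407). WRKY33, a transcription factor phosphorylated by MPK3 and MPK6, measured 7.04, 10.0 and 13.3 FPKM in wild type with water and 39.3, 26.0 and 57.6 in irr with water, without overlap. With Pep1 within irr, and between the genotypes with Pep1, 0 of the 17 were called by limma (4 and 7 at an unadjusted p under 0.05). In the mean irr difference 6 of the 17 were higher and 0 lower, the largest being WRKY33 at 1.80, ERF6 at 1.57 and the ethylene synthesis enzyme ACS6 at 1.33 (limma adjusted p = 0.00343, 0.00649 and 0.0277). The median of the 17 was 0.27, beside 0.00 over all genes. Of all genes, 8.55% were called higher and 3.9% lower in the mean irr difference. The shares were 2.96% higher for irr under water, and 2.13% higher and 1.34% lower for Pep1 in wild type.

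Of 7 marker genes of pattern-triggered output, 1 rose with Pep1 in wild type and in irr. It was PAD3, the last enzyme of camalexin synthesis, at 2.47 ± 0.39 and 2.74 ± 0.39 (limma adjusted p = 0.01 and 0.0171). PAD3 measured 0.0421 to 0.203 FPKM in wild type with water and 6.01, 6.22 and 3.94 with Pep1. In irr it measured 0.221 to 0.76 FPKM with water and 14, 13.3 and 3.16 with Pep1. PAD3 thus passed the filter on level only through the Pep1 libraries, in which it is high, and these p are not read as support. Irr had 1 of the 7 called higher under water, FRK1 at 3.28 ± 0.77, and 1 called higher with Pep1, CYP81F2 at 3.08 ± 0.64 (limma adjusted p = 0.039 and 0.0397). Averaged over treatments 5 of the 7 were higher in irr and 0 lower, with FRK1 at 3.15, CYP81F2 at 2.72 and PROPEP3 at 2.45 (limma adjusted p = 0.00542, 0.00452 and 0.0102). Called higher of all genes were 2.13% for Pep1 in wild type and 0.737% for Pep1 in irr. For irr the shares were 2.96% under water, 1.17% with Pep1 and 8.55% averaged over treatments. The irr libraries differed much among themselves for these genes, as FRK1 measured 44.0, 7.67 and 43.6 FPKM with water and 13.6, 131 and 17 with Pep1.

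**Figure D4:**
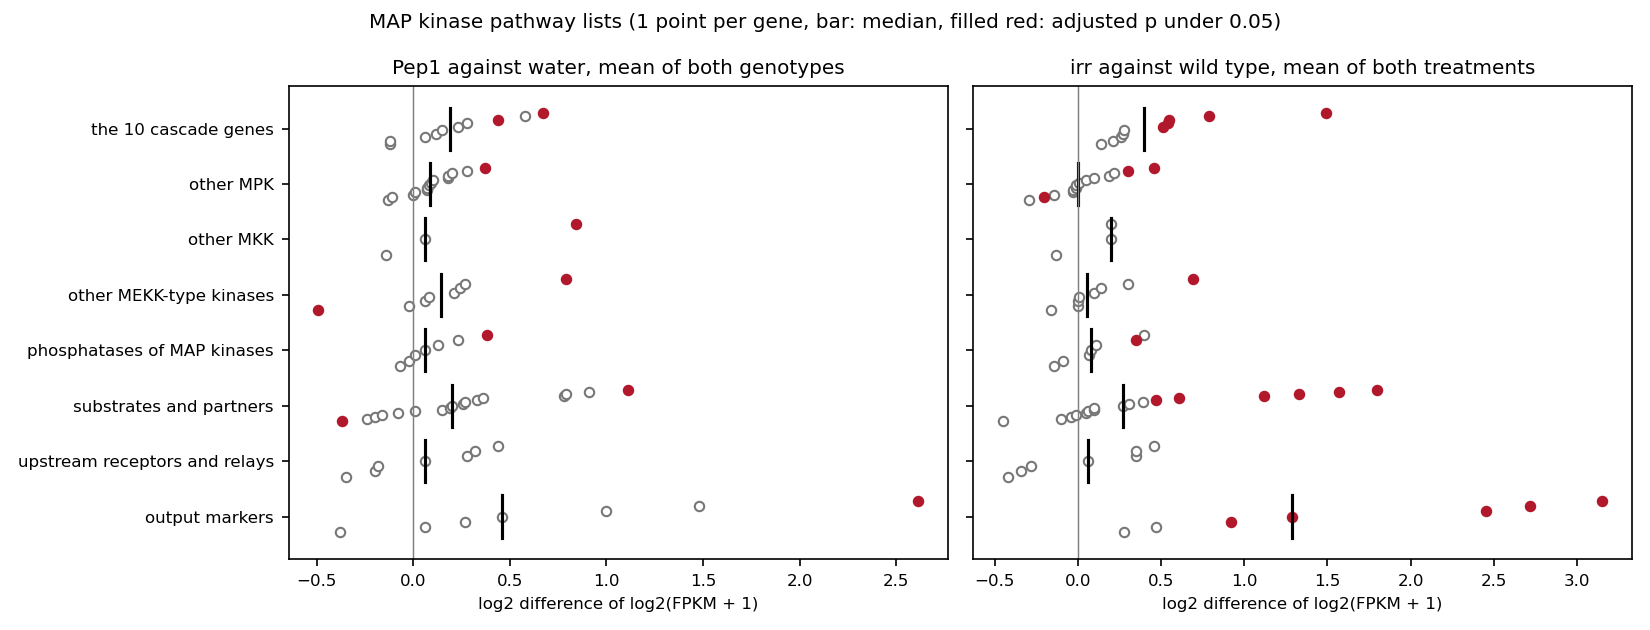
Mean log2 differences of log2(FPKM + 1) (horizontal axis) for Pep1 over both genotypes and for irr over both treatments, with 1 point per gene, a bar at the median of each list and red where the limma adjusted p is under 0.05. The 10 cascade genes have medians of 0.19 and 0.39, and 5 of them are called for irr.

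Some organ markers differed between the groups, and others did not. The summed level of 6 leaf markers was 31167 to 32906 FPKM in wild type with water, 20420 to 24748 with Pep1, and 24381 to 28828 and 17473 to 26101 in irr. That of 8 root markers was 511 to 786 FPKM in wild type with water, 863 to 994 with Pep1, and 327 to 585 and 371 to 464 in irr. PYK10, a beta-glucosidase, made up 89.0% to 97.2% of each root sum, and the other 7 root markers summed to 20.7 to 38.9 FPKM and 28 to 44.0 in wild type, and 31.9 to 36.9 and 21.1 to 25.3 in irr. No marker of either list was at 0 throughout a group. Under water 0 of the 7 root markers kept were called between the genotypes by limma, with 2 under 0.05 before adjustment (EXP7 higher and PYK10 lower), and 5 had a difference above 0, with a median of 0.17. With Pep1, PYK10 and the root hair gene RHS13 were lower in irr, at -1.20 and -2.42 (limma adjusted p = 0.0253 and 0.00765), and Pep1 within irr lowered RHS13 and EXP7, an expansin of root hairs, at -2 and -1.83 (limma adjusted p = 0.0176 and 0.0312). In the mean irr difference PYK10 at -0.94 and RHS13 at -0.93 were called lower (limma adjusted p = 0.00444 and 0.0221) and 0 of the 7 higher. The root markers SCR, SHR, TIP2;3 and NRT2.1 were not called in any comparison by limma, nor did they have an unadjusted p under 0.05. Of the 6 leaf markers, RBCS1A and LHCB1.1 were called lower in the mean Pep1 difference, at -0.38 and -0.55 (limma adjusted p = 0.0289 and 0.0426). Limma called 0 of the 6 in any pair of groups or in the mean irr difference, while 3 had an unadjusted p under 0.05 in at least 1 pair. Called lower of all genes were 0.363% for irr with Pep1, 1.25% for Pep1 in irr, 3.9% in the mean irr and 5.45% in the mean Pep1 difference. The part of organ make-up in the differences of the cascade genes was not tested.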

How the data were processed

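Total RNA of 12 seedling pools was read from both ends, per the labels' protocols, which state 20 M raw reads for each. The authors deposited 1 table of FPKM values for 32846 genes, of which 6656 were at 0 in every library, and column sums ran from 762741 to 828006. Not given in the sources used here were the aligner, the counter, the build, the annotation and the use of strand, so no coordinates and no sequences are printed. TAIR10.1 served for names and overlapping genes, and 31912 identifiers matched.

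FPKM are not counts, so values were taken as log2(FPKM + 1) and tested with limma (version 3.58.1, under R version 4.3.3). The fit used a mean-variance trend and a mean for each group, which left 8 residual degrees of freedom. P-values are two-sided and adjusted over the 18177 genes with at least 1 FPKM in at least 3 libraries. The fit was tested on simulated data of the wild-type Pep1 comparison (18177 genes), where 83% of 100 genes changed 2-fold and 99% of 100 changed 4-fold were called, and 4.71% of the calls were false. Changed genes were drawn only above a set level in wild type with water, and the simulated noise was independent between genes and libraries. MPK11, MKK4 and MKK1, at 0.334, 3.87 and 4.14 FPKM in that group, lay below that level. The simulated rates are therefore not the power for the cascade genes. Ratios of genes were tested by exact permutation over 400 arrangements of libraries. Python 3.11.15 was used for these and for the figures.

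Library totals come from the steps between low values, found with reference gene lengths, at which 24.6% to 27.1% of the values above 0 of single-transcript genes were whole reads within 0.05. With each gene's length fitted instead, up to 20000 bases, 100% of 300 genes were whole in all libraries, and 0% with wrong totals. The MPK11 reads rest on such a fitted length. The totals had a median of 20.2 M, close to the 20 M of the labels, but ran from 17.4 M to 56.5 M, for reasons not given. The unit may be reads or fragments, and intervals cover counting error only.

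The 10 genes and the pathway lists were chosen with earlier results of these data known. By rule, the text names all 10 genes, and from each list up to 3 called genes with the largest difference or, with none called, up to 2 of the highest level. PEPR1 and MPK17 were added as the known receptor and the highest MPK, after their values were seen. List entries whose identifier and symbol disagreed in the reference were dropped (AP2C2, AP2C3, AP2C4, ASR3, PCRK1, PCRK2 and PBL19). For MPK3 and MPK11 the 5 genes with the highest Pearson r are named. The alternatives tried were leaving out each library, fitting the 2 groups alone, weighting libraries by quality, dropping the trend, blocking on the replicate number, setting library medians equal, filtering on a mean of 5 FPKM or not at all, and pseudocounts of 0.1 and 5.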

Additional observations from a re-analysis of the deposited data

How the results depend on the processing

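Of 1432 recomputed log2 differences of the 10 genes (70 results), 1327 kept direction and side of the threshold, 47 lost and 37 gained a call and 21 turned sign, those last all of differences that had not been called. The cause was not tested. Same-numbered libraries had correlations of deviations from -0.52 to 0.19. For Pep1 in wild type (0.03 to 0.05) and irr with Pep1 (0.02 to 0.19), each exceeded the highest correlation with a library of another number. For Pep1 in irr and irr under water, each lay below that highest correlation. Whether the replicate numbers pair libraries was not tested. With the replicate block, cascade genes called fell from 1 to 0 for Pep1 in wild type and from 2 to 1 for the mean Pep1 difference, and genes called to 147 for Pep1 in irr, 389 for irr under water and 82 for irr with Pep1. For the ratios, blocking meant another test, an exact sign-flip of the differences between same-numbered libraries. Under it the ratios of MPK3 to MPK6 (0.81 for Pep1, 0.38 for irr), of MPK11 to MPK4 (2.77) and of MKK4 to MKK5 (0.37) had adjusted p of 0.125, and MKK1 to MKK2 (-0.26) of 0.167. The sign-flip test has fewer arrangements than the main test and so a larger smallest p. A call was possible only if most of the 8 tests reached that smallest p, so no conclusion is drawn from these losses.

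All genes called numbered 630 for Pep1 in wild type, 362 for Pep1 in irr, 713 for irr under water, 278 for irr with Pep1, 0 for the interaction, 2100 for the mean Pep1 and 2262 for the mean irr difference. Counts that stayed close to these under an alternative are not listed. For the pairs of groups, in that order, no filter gave 407, 194, 267 and 139. Quality weights gave 2025 and 1041 for Pep1 in wild type and in irr, 1821 for irr with Pep1 and 3425 for the mean Pep1 difference, and a fit of only the 2 groups gave 2000 for Pep1 in wild type, 0 for Pep1 in irr (2164 with an unadjusted p under 0.05, limma) and 22 for irr with Pep1. No trend gave 223 for Pep1 in irr, a pseudocount of 5 gave 469 for irr under water, a mean of at least 5 FPKM gave 145 for irr with Pep1, and a pseudocount of 0.1 gave 1 for the interaction. Leaving out 1 library gave 105 to 1051, 0 to 1398, 46 to 1412, 24 to 1639, 0 to 7, 1111 to 3232 and 1313 to 3258, in the order of the 7 differences. Equal library medians moved the share of calls that were higher from 61.4% to 49.5% for Pep1 in wild type, from 75.5% to 60.3% for irr under water, from 52.8% to 41.3% for the mean Pep1 and from 68.7% to 51.1% for the mean irr difference.

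Cascade genes called under no filter were 0 for Pep1 in wild type, 0 for irr under water, 1 for the mean Pep1 and 3 for the mean irr difference. Under quality weights they were 2 for Pep1 in wild type, 1 for Pep1 in irr, 3 for irr under water, 5 for irr with Pep1 and 4 for the mean Pep1 difference, and in a fit of only the 2 groups 2 for Pep1 in wild type and 3 for irr under water. A pseudocount of 5, equal medians and no trend each gave 1 for the mean Pep1 difference. Counts close to the main one are not listed, though calls changed in some of them. In the mean irr difference quality weights added MPK4 and MEKK1 (limma adjusted p = 0.0383 and 0.0214). The replicate block lost MPK3 there (limma adjusted p = 0.0566). Leaving out 1 library gave 0 to 1, 0 to 3, 0 to 4, 0 to 6, 0 to 0, 1 to 5 and 3 to 8, in the order of the 7 differences, the counts of 3, 4, 6, 5 and 8 coming without irr Pep1 replicate 3. Left-out ranges of the log2 ratios for Pep1 and irr were 0.73 to 0.92 and 0.30 to 0.49 for MPK3 to MPK6, 0.90 to 1.79 and 2.33 to 3.21 for MPK11 to MPK4, -0.15 to -0.04 and 0.34 to 0.43 for MKK4 to MKK5, and 0.03 to 0.14 and -0.30 to -0.20 for MKK1 to MKK2.

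Sign turned under quality weights for MPK4 (0.04) and MEKK1 (0.01) with Pep1 in wild type and for the MKK2 interaction (0.09). With 1 library left out, sign turned for Pep1 in wild type in MPK4 (-0.09 to 0.07), MKK4 (-0.07 to 0.05) and MEKK1 (-0.06 to 0.04), for Pep1 in irr in MKK4 (-0.06 to 0.30) and MKK5 (-0.07 to 0.16), for the interaction in MPK6 (-0.16 to 0.01), MKK4 (-0.06 to 0.30), MKK9 (-0.35 to 0.03), MKK1 (-0.13 to 0.35) and MKK2 (-0.22 to 0.26), and for the mean Pep1 difference in MKK4 (-0.03 to 0.15). Depth limits MPK11 most, with 2 to 31 reads in each wild-type library, against at least 100 reads for every other cascade gene in each library.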
